A study of Mus musculus with 5 samples.

Results

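The Argonaute and TNRC6 genes, with Dicer1, encode the core of the microRNA silencing machinery. Their 7 transcripts (Ago1, Ago2, Ago3, Tnrc6a, Tnrc6b, Tnrc6c and Dicer1) were taken by name, out of 18349 genes with a listed mRNA level, and their PABPC1 contacts were followed along each mRNA. The cells were MEL cells, a mouse erythroleukemia line blocked early in the red cell lineage and sampled at day 0. No treatment was compared: PABPC1 CLIP-seq was made from 3 samples, irradiated at 400 mJ/cm2 and treated with RNase for 10 min, and mRNA-seq of poly(A)+ RNA from 2 samples of the same line. CLIP-seq recovers the RNA fragments that ultraviolet light has linked to a protein. The deposited files pool the replicates of each assay into 1 list of peaks, 1 list of deletion sites and 1 value of RPKM a gene (reads scaled to gene length and to the library's depth), so the values below carry no replicate error and genes were not tested against each other.

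A microRNA is cut from its hairpin precursor by Dicer and loaded into an Argonaute protein, which it guides to complementary sites, most often in the 3' UTR of an mRNA. Argonaute recruits a TNRC6 (GW182) scaffold, and TNRC6 recruits the CCR4-NOT and PAN2-PAN3 deadenylases that shorten the poly(A) tail. TNRC6 proteins also bind PABPC1 directly, through a short peptide called PAM2. Whether the mRNAs of these proteins are themselves in contact with PABPC1 inside their sequence is what the peaks and deletion sites address. Close to a transcript end they may not separate such contact from contact at the tail. No control CLIP is among the samples.

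All 7 members held a PABPC1 peak in an exon. The background was high: 96.6% of the 10211 protein-coding genes with RPKM of at least 1 held one, and 87.0% of all 12331 genes at that level, so the count does not set the members apart. A peak of at least 50 tags was present in 5 of the 7 (Ago2, Tnrc6a, Tnrc6b, Tnrc6c and Dicer1), against 65.2% of protein-coding genes. The tallest exonic peak lay in the 3' UTR in 7 of 7, against 90.2% of the 9868 protein-coding genes with a peak. Deletion sites, single bases that reverse transcriptase skipped at the cross-link, were listed in 4 of the 7 (Ago1, Ago2, Tnrc6b and Dicer1), against 37.0% of protein-coding genes.

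The deletion sites are narrower than the peaks and are read here as marks of contact. The members held 12, all in 3' UTRs (12 of 12, interval 73.5 to 100%), against 90.0% of 9660 sites in other expressed protein-coding genes. Sites within 10 nt of each other formed 8 runs. The interval takes sites as independent, which neighbouring sites are not, so it is too narrow. The sequence around 7 of these runs, with 10 of the sites, is shown because it holds the deleted bases. It was read 5' to 3' from the GENCODE M21 transcript (mm10), from 14 nt before to 15 nt after the base with the most deletions, or to the transcript end, with the deleted bases in capitals.
Ago1, 9 nt before the transcript end (chr4:126435012-126435035, minus strand): acaacagtggctttTatttctaaa
Ago2, 699 and 700 nt after the stop codon (chr15:73106194-73106223, minus strand): aaaaaaagacaataTActgacagtctaatc
Ago2, 840 and 841 nt after the stop codon (chr15:73106053-73106082, minus strand): taagagaagaatatATgtatctggtttgca
Ago2, 11 nt before the transcript end (chr15:73095844-73095869, minus strand): aaattcctcgtattTacagctgccta
Tnrc6b, 201 nt after the stop codon (chr15:80929663-80929692, plus strand): gttttttcgtttggAatatgaatccaaaaa
Tnrc6b, 380 and 381 nt after the stop codon (chr15:80929842-80929871, plus strand): tgttgctaagaaacATatatactgaaaaaa
Dicer1, 133 nt after the stop codon (chr12:104691445-104691474, minus strand): agatagataacagaAtaaaacatgtaatat

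At these 10 sites every deleted base was A or T, and A and T made up 61.5% to 80.0% of the windows. Over the whole 3' UTRs of other protein-coding genes, A made up 26.4% of bases and T 29.7%. The 10 bases come from 7 runs and are not independent, so their count does not set the members apart. A deletion inside a run of one base or inside a short repeat cannot be placed more closely than that run. AATAAA, the main poly(A) signal, stood in 1 of the 7 windows, that of Dicer1, and ATTAAA, the second form of the signal, in none. AAAAAA stood in 2 and ATATAA in none. The motifs were searched on the transcript strand, and AATAAA and AAAAAA may overlap each other in a window. In 30-nt windows tiled over the members' whole 3' UTRs, AATAAA was present in 1.43%, AAAAAA in 2.78%, ATATAA in 0.738% and ATTAAA in 0.928%. In all windows of the same length over the 3' UTRs of other expressed protein-coding genes the shares were 2.39% for AATAAA, 1.81% for AAAAAA, 0.916% for ATATAA and 1.54% for ATTAAA. Around the 8432 3' UTR deletion sites of those other genes AATAAA stood in 29.7% of windows, AAAAAA in 10.6%, ATATAA in 11.5% and ATTAAA in 3.91%. With 7 windows, several of them from 1 gene, no share of the members can be told from these.

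mRNA level and CLIP signal did not follow the same order. Tnrc6a had the highest level at 37.1 RPKM, followed by Dicer1 at 24.7, Ago2 at 21.3, Tnrc6c at 12.7, Ago1 at 9.93, Tnrc6b at 7.52 and Ago3 at 3.11. In such bulk data fewer cells that make an mRNA and less of it per cell cannot be told apart. These levels rest on about 1816 reads (Ago3) to 16621 reads (Tnrc6a), taking the length of all annotated exons. CLIP signal, the height of a gene's exonic peaks summed in tags, was 1168 in Ago2, 1164 in Tnrc6b, 424 in Tnrc6a, 355 in Dicer1, 248 in Tnrc6c, 62 in Ago1 and 54 in Ago3. Ago2 and Tnrc6b thus held 67.1% of the 3475 tags of all 7. Tnrc6b, next to last in mRNA level, was level with Ago2 in CLIP signal.

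**Figure D1:**
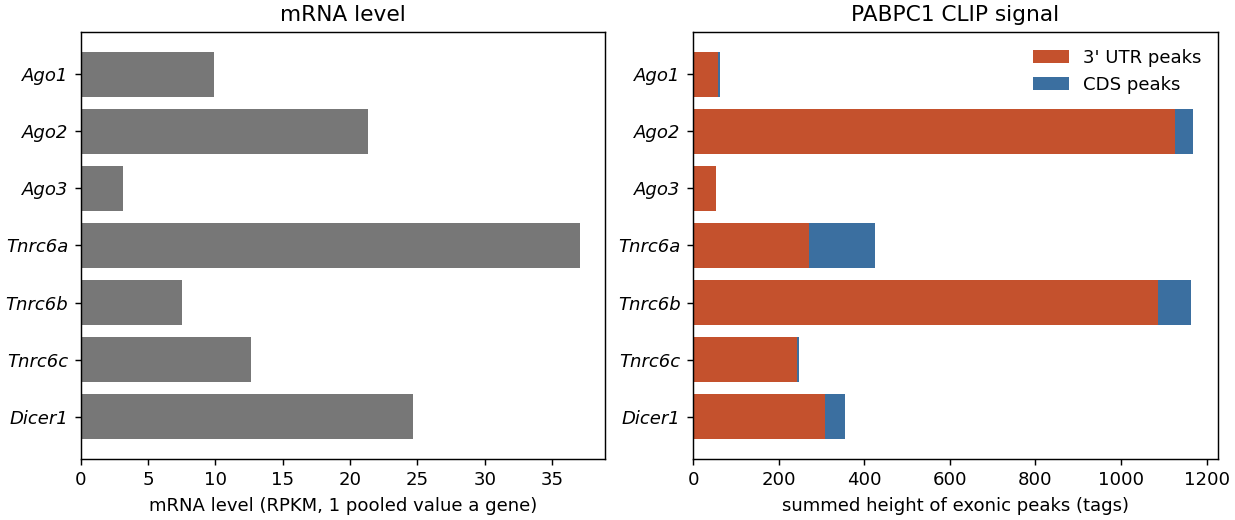
mRNA level in RPKM (left) and summed height of exonic PABPC1 peaks in tags (right) for the 7 genes, with 3' UTR peaks in orange and CDS peaks in blue. Each bar is 1 pooled value. Tnrc6b has a low mRNA level (7.52 RPKM) and, with Ago2, the longest CLIP bar (1164 and 1168 tags).

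Relative to mRNA level, Tnrc6b and Ago2 stood near the top of all genes. The log2 of summed height over RPKM, with 1 added to each, was 7.09 in Tnrc6b, at percentile 99.9 of the 12331 genes, and 5.71 in Ago2, at percentile 98.6. It was 4.19 in Tnrc6c, 3.79 in Dicer1, 3.74 in Ago3, 3.48 in Tnrc6a and 2.53 in Ago1. The members' median of 3.79 stands beside 2.43 for all genes. Summed height is not divided by length while RPKM is, and the 3' UTRs are long: 12742 nt in Ago3, 11609 nt in Tnrc6b and 11064 nt in Ago2, against a median of 1082 nt over expressed protein-coding genes. With summed height divided by exon length the members' median was 0.53, below the 0.91 of all genes. Tnrc6b was then at percentile 91.9 and Ago2 at 75.4, and the other members ran from 28.5 (Ago1) to 53.1 (Tnrc6c).

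**Figure D2:**
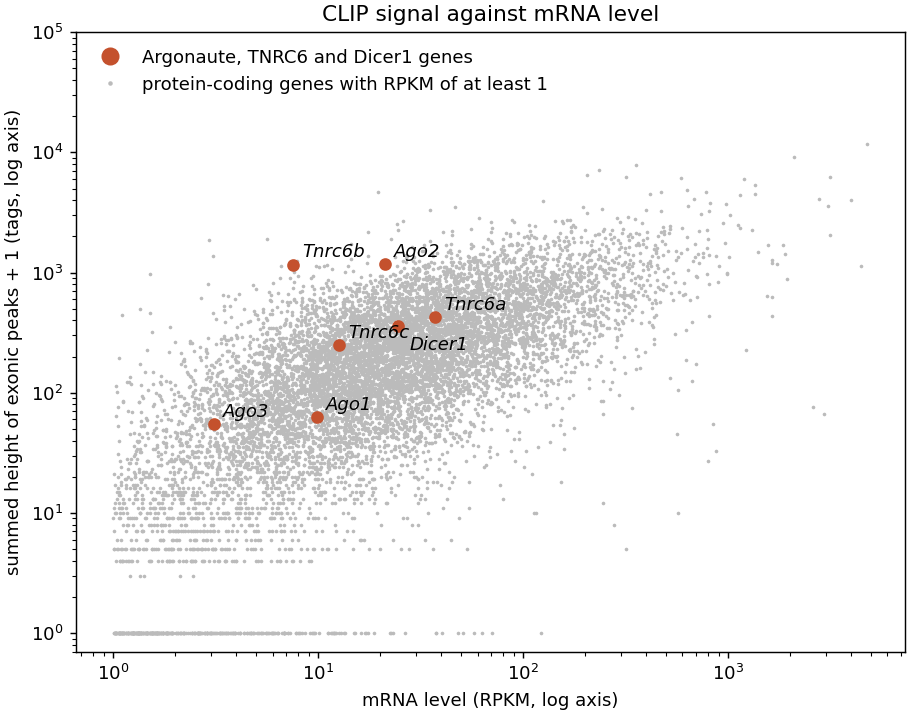
Summed height of exonic peaks plus 1 against mRNA level, both on log axes, for the 7 genes (orange) and protein-coding genes with RPKM of at least 1 (grey). Tnrc6b and Ago2 lie along the upper edge of the cloud, and Ago1 (62 tags at 9.93 RPKM) lies inside it.

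Most of the members' signal lay in 3' UTRs. Of their 134 exonic peaks 97 lay in 3' UTRs, 72.4% (exact 95% binomial interval 64.0 to 79.8, counting error alone), against 54.8% of 73668 mRNA peaks in other expressed protein-coding genes. 3' UTRs made up 60.2% of the members' transcript length, against 44.1% in the other genes. The remaining 37 peaks lay in CDS and none in a 5' UTR, where the 0 of 134 allows up to 2.72% and the other genes had 2.62%. By height the 3' UTRs held 90.4% of the members' tags. Most peaks were low: 77 of the 134 had under 10 tags, and 15, all in 3' UTRs, had at least 50. Introns added 11 peaks with 100 tags in all, in Ago3, Tnrc6a, Tnrc6b and Tnrc6c, the tallest of 25 tags in Tnrc6b.

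**Figure D3:**
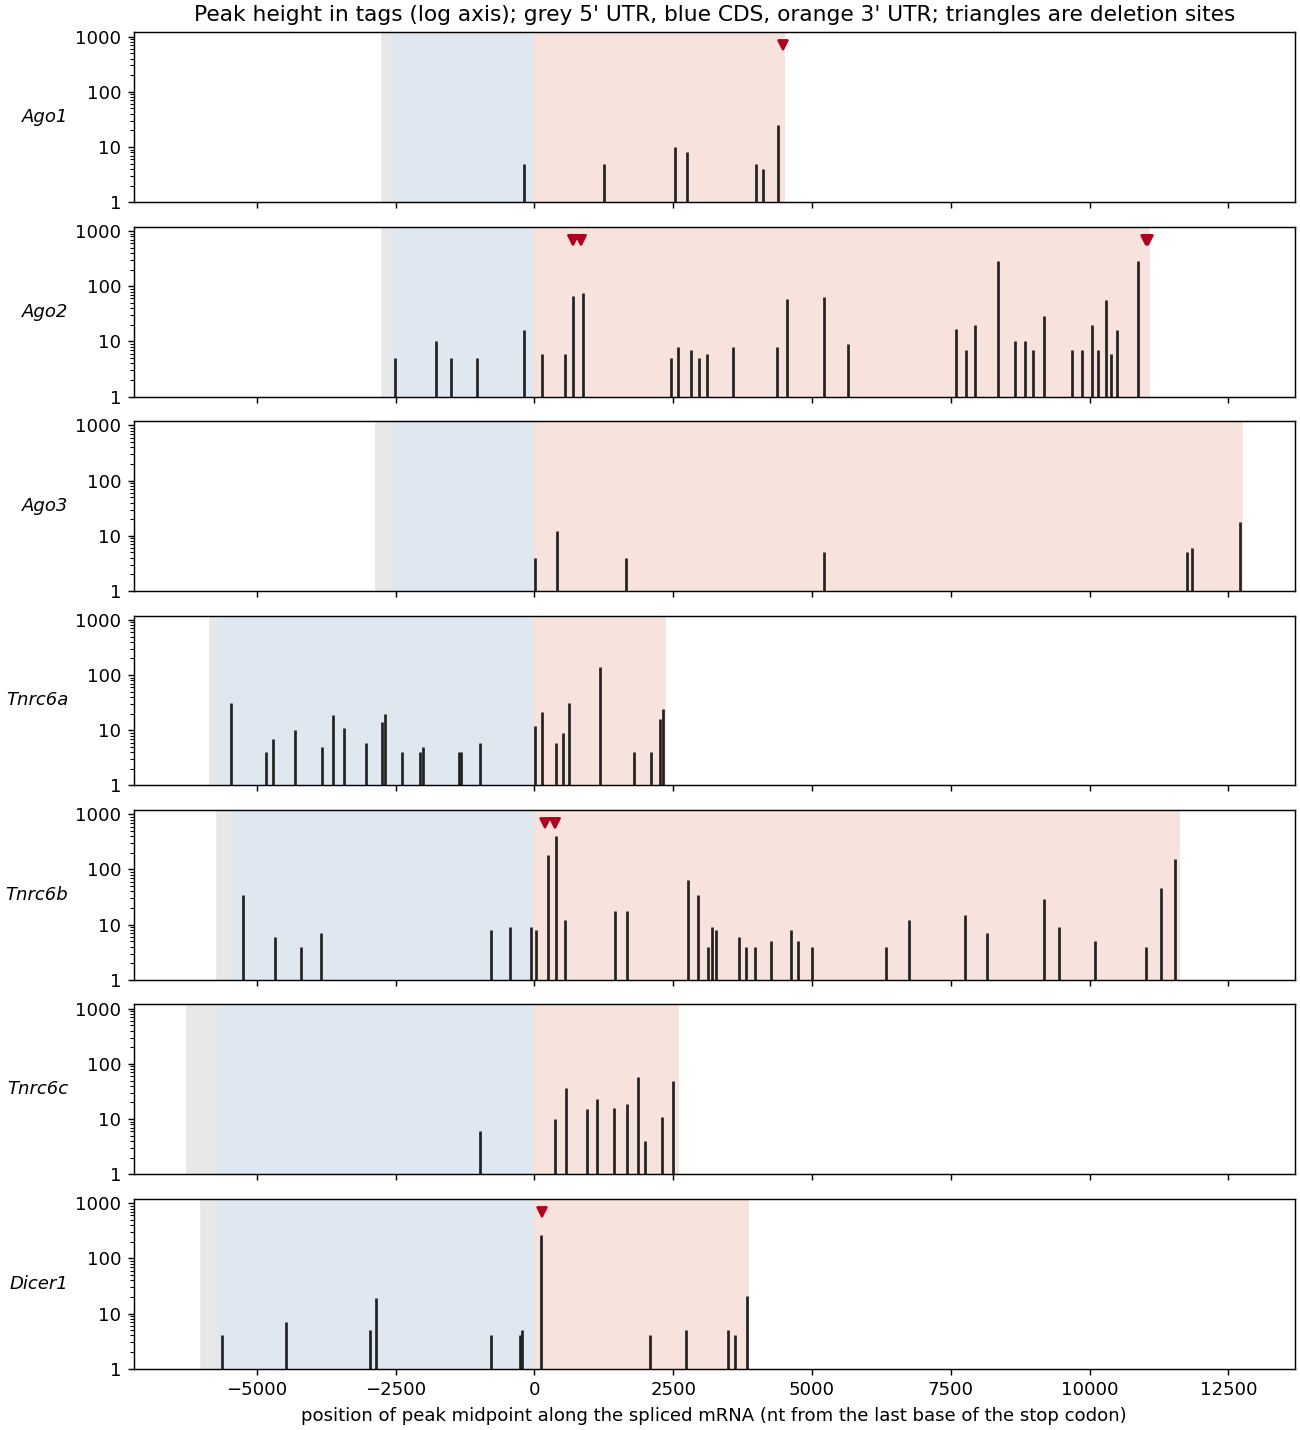
Exonic PABPC1 peaks along each spliced mRNA: x, position of the peak's midpoint in nt from the end of the stop codon; y, peak height in tags (log axis). Triangles mark deletion sites. In Tnrc6b and Dicer1 the tallest peak (404 and 268 tags) stands just after the stop codon. In Ago1, Ago2 and Ago3 the tallest (25, 290 and 18 tags) stands at the 3' end of the longest coding transcript.

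The 3 Argonaute mRNAs spanned a 21.6-fold range in summed height and a 6.86-fold range in mRNA level, and each held at least 91.9% of its tags in the 3' UTR. Argonaute proteins hold the microRNA, and Ago2 is the member that can cut a target. Ago2 (chr15:73095844-73184935, minus strand) had 35 exonic peaks, 30 of them in its 3' UTR. Its tallest, of 290 tags (chr15:73095844-73096210), covered the last part of the 3' UTR. It held 3 deletion sites, and at 1 of them, position 73095855, 14 of 49 tags were deleted (28.6%, interval 16.6 to 43.3). This peak lies opposite Chrac1, a gene on the other strand. The peaks are stranded, but the sources used here do not say whether RPKM was counted by strand, so reads of Chrac1 and Ago2 cannot be told apart in it.

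The second Ago2 peak was as tall, at 284 tags (chr15:73098336-73098795), lay 2721 nt before the transcript end and held no deletion site. It covers an encoded run of 22 A, shown in capitals because the study's title concerns sequences encoded in the genome.
Ago2 (chr15:73098427-73098456, minus strand): atgcAAAAAAAAAAAAAAAAAAAAAAgcag
Near the start of the 3' UTR, peaks of 66 tags (chr15:73106156-73106259) and 76 tags (chr15:73105923-73106123) held 2 deletion sites each. Those were deleted in 6 of 24 and 6 of 30 tags in the first and in 10 of 70 and 10 of 73 tags in the second. The other peaks of at least 50 tags, of 64, 59 and 57 tags, held none. The tallest of 5 CDS peaks reached 16 tags (chr15:73107197-73107278).

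Ago1 and Ago3 carried little signal. Ago1 (chr4:126435012-126468583, minus strand) had 7 exonic peaks, 6 of them in the 3' UTR, and its tallest, 25 tags (chr4:126434984-126435252), ran past the annotated 3' end. The deletion site there, 9 nt before the end at position 126435021, had 6 deletions in 16 tags (37.5%, interval 15.2 to 64.6). The 1 CDS peak of Ago1 had 5 tags (chr4:126439899-126439940). Ago3 (chr4:126331704-126429556, minus strand), with the longest 3' UTR of the 7, had 7 exonic peaks, all in it. The tallest, 18 tags (chr4:126332732-126332798), ended at the last base of the longest coding transcript and held 1 AATAAA. No deletion site was listed in Ago3, and at so few tags sites are seldom listed: among other genes 1.18% of 3' UTR peaks of 10 to 24 tags held one.

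The TNRC6 mRNAs, which encode the scaffolds that bind PABPC1, spanned a 4.69-fold range in summed height and a 4.93-fold range in mRNA level, and held 63.7% (Tnrc6a) to 97.6% (Tnrc6c) of their tags in the 3' UTR. Tnrc6b (chr15:80711313-80941085, plus strand) had 35 exonic peaks, 28 of them in the 3' UTR, and the 2 tallest stood near the stop codon. The tallest, of 404 tags, spans chr15:80929822-80929918 and that of 183 tags chr15:80929634-80929807. At positions 80929856 and 80929857 under the taller peak, 95 of 318 tags (29.9%, interval 24.9 to 35.2) and 95 of 338 tags (28.1%, 23.4 to 33.2) were deleted. Of the 8709 3' UTR sites in expressed protein-coding genes, 3.61% had at least as many deletions. The median deleted share over those sites was 10.4%. The site under the peak of 183 tags, at 80929677, was deleted in 9 of 182 tags (4.95%, 2.29 to 9.18), a share whose interval lies wholly below those of the other pair.

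In the first 1000 nt after the stop codon, 8.61% of its length, the 3' UTR of Tnrc6b held 55.9% of its tags, and the last 500 nt held 18.6%. The peak at the end had 155 tags (chr15:80940945-80941088), an AATAAA and no deletion site. The basic transcript set of GENCODE, used for placing peaks, has 1 transcript of Tnrc6b, with the long 3' UTR. The full set also has a protein-coding transcript that ends 532 nt after the stop codon (position 80930008), 151 nt past the site at 80929857. Which of these ends the cells use was not tested. Of 7 CDS peaks the tallest had 35 tags (chr15:80858726-80858772). The next tallest 3' UTR peak, of 64 tags at chr15:80932147-80932326, covers a run of 14 A, and the peak at the end covers one of 8 A, in capitals here.
Tnrc6b (chr15:80932280-80932309, plus strand): aaaaacttAAAAAAAAAAAAAAgaccaaaa
Tnrc6b (chr15:80941032-80941061, plus strand): tgagttcctggAAAAAAAAgaaaaaagact

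Tnrc6a (chr7:123123885-123195296, plus strand), the most abundant of the 7 mRNAs, was also the one with the most CDS peaks. Its 16 CDS peaks outnumbered its 10 in the 3' UTR and held 36.3% of its 424 tags. CDS held 6.70% of the tags in Tnrc6b and 2.42% in Tnrc6c. The 3' UTR made up 28.7% of the transcript in Tnrc6a and 29.3% in Tnrc6c, against 67.0% in Tnrc6b. Per kb of CDS and per RPKM, height was 0.729 tags in Tnrc6a, 1.91 in Tnrc6b and 0.0832 in Tnrc6c. The tallest CDS peak of Tnrc6a had 31 tags (chr7:123162491-123162614). It lies in the part of the gene shared with Gm45846, a lincRNA on the same strand. The others had 4 to 20 tags. The tallest peak of the gene, 143 tags over 1034 nt (chr7:123193620-123194653), lay in the 3' UTR and held no deletion site. It covers a run of 16 A within a tract of A and G.
Tnrc6a (chr7:123193980-123194009, plus strand): aaaaaagAAAAAAAAAAAAAAAAgaaaaga
Among transcripts outside the basic set, 2 coding ones end at 123193978 and 123193987, beside and within that tract. At the main 3' end the gene had a peak of 24 tags (chr7:123195247-123195295) with 1 AATAAA.

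Tnrc6c (chr11:117654289-117763439, plus strand) had its signal spread along the 3' UTR. Its 10 peaks there ran from 4 to 58 tags, and the tallest (chr11:117762624-117762811) held 23.4% of the gene's 248 tags. The peak at the transcript end had 50 tags (chr11:117763275-117763437), with 1 AATAAA and 1 ATTAAA. CDS had 1 peak of 6 tags (chr11:117755437-117755475). No deletion site was listed in Tnrc6a or Tnrc6c, whose tallest peaks fall in height classes where 38.1% (at least 100 and under 200 tags) and 15.2% (50 to 99 tags) of other 3' UTR peaks held one.

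Dicer1 (chr12:104687742-104751952, minus strand), the nuclease that cuts microRNA precursors, had 1 dominant peak. Of its 355 tags, 268 (75.5%) lay in the peak at chr12:104691422-104691507, centred 129 nt after the stop codon in a 3' UTR of 3851 nt. No other member had more than 40.3% of its tags in 1 peak. The deletion at position 104691460 was found in 12 of 229 tags (5.24%, interval 2.74 to 8.97), placed on the second A of an AATAAA. The full annotation has 2 Dicer1 transcripts without a coding label that end at 104691443 and 104691428, 150 and 165 nt after the stop codon and within that peak. The peak at the end of the long 3' UTR had 21 tags (chr12:104687741-104687788), with 1 AATAAA. CDS held 7 peaks, of at most 19 tags (chr12:104705090-104705203), 13.5% of the tags.

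**Figure D4:**
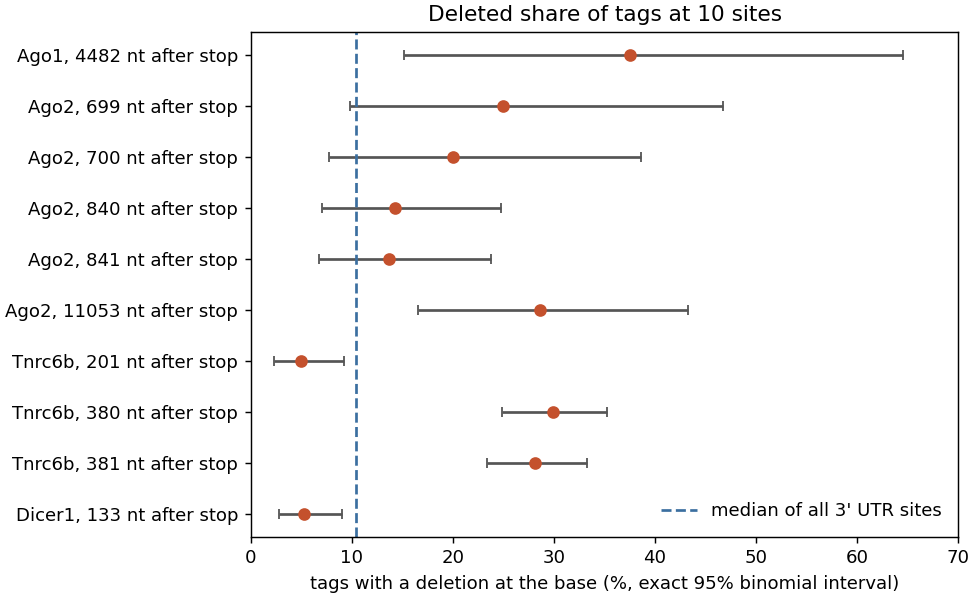
Share of tags with a deletion at each of 10 of the 12 sites, in percent, with exact 95% binomial intervals (counting error alone), ordered by gene and position. The dashed line is the median of all 3' UTR sites, 10.4%. The pair in Tnrc6b lies above it with its interval, and the sites of Dicer1 and of Tnrc6b at 201 nt lie below it.

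Among these 10 of the 12 sites, the interval lay wholly above the median of 10.4% at the Ago1 site, at the Ago2 site 11 nt before the end and at the Tnrc6b pair, and wholly below it at 2 sites. At the 4 other sites it included the median. The list holds only sites that passed its thresholds, so a site with few tags may be listed only at a high share. The Ago1 site had 16 covering tags and the Ago2 site near the end 49, against a median of 124 over all listed sites. Their place above the median cannot be told apart from this. The intervals treat tags as independent molecules and are too narrow where tags are copies of each other. Neighbouring sites can share their deleted tags and are not separate observations.

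A runs and poly(A) signals were each present in part of the tall peaks. Of the 15 peaks of at least 50 tags, 8 held AAAAAA (53.3%), against 21.7% of 8336 such 3' UTR peaks in other expressed protein-coding genes. A poly(A) signal of either form stood in 8 (53.3%), against 69.3%. Median width within the transcript was 163 nt in the members and 184 nt in the others. A peak is thus wider than a run it covers and does not place the signal on it. Runs of A were shown only for tall peaks that held AAAAAA and no deletion site. The remaining tall peaks without a site, of 64, 59 and 57 tags in Ago2 and of 58 and 50 in Tnrc6c, had no run above 5 A. Peaks of 1 gene are not independent, and no test was made.

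**Figure D5:**
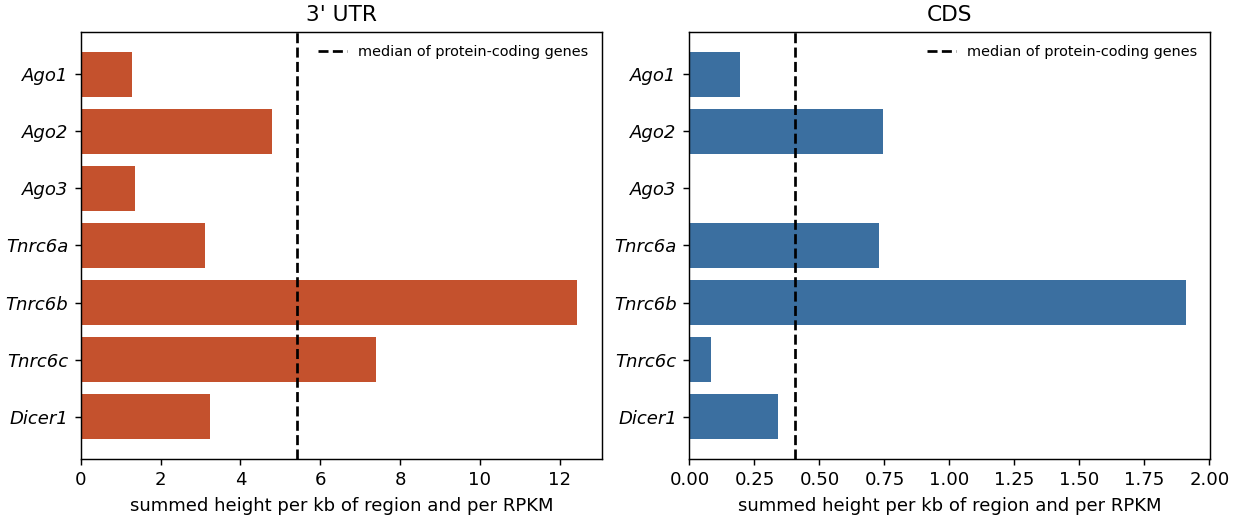
Summed peak height per kb of region and per RPKM, for 3' UTRs (left) and CDS (right) of the 7 genes. The dashed line is the median of protein-coding genes with RPKM of at least 1 and a region of at least 100 nt. In 3' UTRs, Tnrc6b and Tnrc6c lie above the line and the other 5 below it.

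Per kb of 3' UTR and per RPKM the order changed again. RPKM rests on the length of all annotated exons, while height was divided by the region's length in the longest coding transcript. Height per kb of exon likewise used basic transcripts alone. These lengths differ by gene, so both orders depend in part on the annotation. Tnrc6b led at 12.4 tags, followed by Tnrc6c at 7.39, Ago2 at 4.78, Dicer1 at 3.23, Tnrc6a at 3.10, Ago3 at 1.36 and Ago1 at 1.28. The median of 9738 protein-coding genes was 5.42, so 2 of the 7 members lay above it, and Tnrc6b stood at percentile 77.7. In CDS the same measure was 1.91 in Tnrc6b, 0.745 in Ago2, 0.729 in Tnrc6a, 0.340 in Dicer1, 0.196 in Ago1, 0.0832 in Tnrc6c and 0 in Ago3, against a median of 0.407. Within every member the 3' UTR thus had the denser signal, as it had at the median of all genes.

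Other genes of the pathway gave a scale for these values. In a list of 15 microRNA processing genes 13 had RPKM of at least 1. All 13 held an exonic peak and 10 held a deletion site, and their median log2 height over RPKM was 2.56. The highest were Zcchc11 (5.60), a uridylyltransferase of microRNA precursors, and Khsrp (3.97), an RNA-binding protein of their processing, and the lowest Xpo5 (0.30), the precursor export factor, and Tarbp2 (1.34), a partner of Dicer. Among 15 partners of the silencing complex 13 had RPKM of at least 1, all with a peak and 11 with a deletion site, at a median of 3.23. Ipo8 (5.10), an importin that binds Argonaute, and Fmr1 (5.09), an RNA-binding protein, led and the Argonaute-loading chaperones Hsp90aa1 (0.78) and Hsp90ab1 (0.20) were lowest. Ago4, the remaining Argonaute gene, had 2.76 RPKM, 4 exonic peaks, a summed height of 43 and no deletion site. The CCR4-NOT genes, whose products TNRC6 recruits, had a median of 4.06 over 11 genes, and LARP, ataxin-2 and PAIP genes, which include other PABPC1 partners, one of 3.44 over 8. Of these 4 medians, 3 were below the members' 3.79. With height divided by exon length the order turned: the members' median was 0.53, against 0.47 for the processing genes, 1.01 for the partners of the silencing complex, 1.66 for the LARP, ataxin-2 and PAIP genes and 2.35 for the CCR4-NOT genes, so that 3 of the 4 were above it.

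As a check of the label, 11 of 12 erythroid markers had RPKM of at least 1, from 5.61 to 428 RPKM, and the band 3 gene Slc4a1 had 0.122. Of the 18349 listed genes, 12331 matched ones also reached that level. Fibroblast markers were included because the growth protocol names NIH-3T3, a fibroblast line, while the mRNA-seq titles name MEL. Of 9 fibroblast markers 4 were listed. Thy1 stood at 65.3 RPKM, Pdgfrb at 2.60, and Col1a1 and Pdgfra were below 1.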

How the data were processed

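PABPC1 CLIP-seq (3 samples) and mRNA-seq (2 samples) of MEL cells were each deposited as pooled values. The authors' RPKM has 1 value a gene, per the name of the deposited file. Turned back into reads over 4946 genes with the same identifier version, it gave whole numbers within 0.01 for 100% of the 3559 genes under 200 reads, at a total of 35251228 reads. The deposited peak list gives each peak a score. Coverage did not exceed it at 99.8% of 10137 deletion sites inside a peak, so it was taken for height, in tags. The deposited deletion list gives a count of deleted tags and, in its name column, a number taken as the tags covering the base. The sources used here do not give the thresholds of either list. Named in the submitters' processing notes are the mm10 build, HTSeq 0.6.0, TopHat2 2.0.12, Novoalign 3.02.02 and cutadapt 1.4.2.

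Sites were placed by strand on GENCODE M21 basic transcripts (mm10, the build of the notes), a peak by its midpoint, 1-based, in the order 3' UTR, 5' UTR, CDS, non-coding exon, intron. Of the RPKM identifiers 98.4% were matched without their version. The sequence and deleted shares of 1 run of 2 sites in Ago2 are not reported here, so statements on 10 sites or 7 windows leave them out, while counts of 12 sites include them. Positions are along the longest coding transcript. Stop codons count as CDS. Placement was tested on simulated sites. Python 3.11.15, pandas 2.3.3 and scipy 1.17.1 were used. Every member is named with its tallest peak in each exonic region and, but for that run, every exonic deletion site, and, of the microRNA processing and silencing-partner lists, the 2 highest and 2 lowest genes by height over RPKM. Members and lists were chosen with earlier results of these data known. Of the 30-nt stretches in a member's transcript, 0% (Tnrc6c) to 6.33% (Ago2) also occur in transcripts of other genes. Under peaks of at least 50 tags it was at most 0.398% (Tnrc6a). Only annotated transcripts were compared, not poly(A) tails or the rest of the genome, so tags from tails placed on A runs were not tested for.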

Additional observations from a re-analysis of the deposited data

How the results depend on the processing

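All values are pooled over replicates, so leaving out a replicate was not possible. No paired analysis was possible because the deposited columns carry no replicate. The 3' UTR shares did not change with coding sequence placed first, nor that of peaks with the longest transcript alone. These 2 settings could hardly change them, since every member but Tnrc6c has 1 basic transcript. Transcripts outside the basic set were not part of these settings. Any overlap with an exon gave the same 134 peaks. Counting peaks of at least 10 tags left 57 exonic peaks, 82.5% of them in 3' UTRs, and at least 50 tags left 15, 100% of them. Sites with at least 10 deletions numbered 7. The median log2 height over RPKM of the members was 4.08 with a pseudocount of 0.1 (all genes 2.52), 2.21 by the tallest peak (1.60), 3.59 with peaks of at least 10 tags (2.17) and 0.53 per kb of exon (0.91), where Ago1 turned to -0.19. Their median percentile, 79.7, was 76.0 among protein-coding genes alone, 85.0 among all listed genes and 41.1 per kb of exon. Among protein-coding genes alone Ago1 stood at percentile 43.7. So the median's position above the typical gene depends on not dividing by length. Chosen after seeing the data, peaks whole inside the gene span numbered 131, sites within 10 nt formed 8 runs, and the median without Ago2 and Tnrc6b was 3.74, the same as from 3' UTR peaks alone. Heights under about 25 tags limit what could be seen in Ago1 and Ago3.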
